A study of Mus musculus with 8 samples.

Results

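Fatty acid oxidation and the targets of the receptor PPAR-alpha were followed in liver as a set of 32 genes, chosen by symbol from the pathway's receptor, its enzymes and its known target genes. All 32 are among the 15210 genes listed in the deposited table, and 31 of the 12008 genes that passed a minimum level for testing belong to the set. The remaining gene, Cyp4a12a, was below that minimum. Liver RNA came from 8 female F1-TKm30 mice, 4 controls that received 0% MOCA and 4 that received 0.05% MOCA for 4 weeks. MOCA, 4,4'-methylenebis(2-chlorobenzenamine), is an aromatic amine used to cure polyurethane, and how it was given to the mice is not stated in the labels. All 8 mice, the controls included, have the immunodeficient NOG background, which lacks T, B and NK cells. All also carry a herpes simplex virus thymidine kinase mutant, clone 30, driven in hepatocytes by the transthyretin enhancer and promoter. Mice were 17 or 21 weeks old, with no label tying an age to a mouse, and the treatment label names C57BL mice where the strain label names F1-TKm30.

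PPAR-alpha is a nuclear receptor that binds fatty acids, pairs with RXR and raises transcription of genes for fatty acid uptake, activation and oxidation, most of all in the fasting liver. Long chain fatty acids enter mitochondria through the carnitine shuttle and are shortened by beta oxidation. Peroxisomes shorten very long chains, and the Cyp4a enzymes of the endoplasmic reticulum oxidise the far, omega end. Part of the resulting acetyl-CoA leaves the liver as ketone bodies. In rodents, synthetic PPAR-alpha ligands raise Cyp4a10, Cyp4a14, Ehhadh and the Acot genes, so these serve as markers of receptor activity.

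The receptor binds a direct repeat of the half-site AGGTCA with a single base between the copies. The exact repeat, 2 copies of AGGTCA in 1 direction with 1 base of any kind between them, was searched on both strands of the 250 bases before the RefSeq start of each gene (build GRCm38.p6), a window held for 25 of the 32 genes. None of the 25 had it, and 0.0702% of the 11395 listed genes with such a window did. A looser repeat, with copies of AGGNCA and likewise 1 base between, which includes the exact one, was found in 1 of the 25, Fabp1, and in 0.395% of the listed genes. Fabp1 encodes the liver fatty acid binding protein, had the highest level per length of the set, and was among the 3 genes of the set with an unadjusted p under 0.05, so its window is shown (chr6:71199629-71199878, plus strand, 5′ to 3′). The match is in capitals, 67 to 55 bases before the start, where the repeat reads on the opposite strand.
Fabp1: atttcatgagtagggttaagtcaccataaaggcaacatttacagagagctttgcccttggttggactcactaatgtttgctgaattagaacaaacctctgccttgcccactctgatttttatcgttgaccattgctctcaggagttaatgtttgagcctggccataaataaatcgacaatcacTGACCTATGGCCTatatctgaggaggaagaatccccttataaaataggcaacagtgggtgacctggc
The windows of Acaa1a (chr9:119341044-119341293, plus strand) and Acaa1b (chr9:119157094-119157343, minus strand, both written along the gene) are shown because these peroxisomal thiolase genes are close paralogs with unlike levels in every mouse. The RefSeq start used for Acaa1a lies inside the outer bounds of the annotated gene. Capitals mark the half-site AGGNCA on either strand, which 20 of the 25 windows and 53.2% of those of the listed genes held.
Acaa1a: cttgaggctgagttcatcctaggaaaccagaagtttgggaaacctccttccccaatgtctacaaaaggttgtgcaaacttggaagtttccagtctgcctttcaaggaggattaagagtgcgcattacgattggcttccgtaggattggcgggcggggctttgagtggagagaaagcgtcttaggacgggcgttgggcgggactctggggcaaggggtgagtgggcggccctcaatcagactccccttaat
Acaa1b: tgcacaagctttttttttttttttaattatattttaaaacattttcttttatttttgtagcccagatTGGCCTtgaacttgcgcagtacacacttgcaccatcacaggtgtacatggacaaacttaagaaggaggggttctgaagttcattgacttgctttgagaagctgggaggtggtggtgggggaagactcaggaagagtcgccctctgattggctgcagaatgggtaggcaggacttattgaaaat
Acaa1a had no half-site and Acaa1b had 1 in these 250 bases. In a global alignment of the 2 windows, with gaps allowed, 46.6% of positions were identical. No unrelated windows were aligned for a baseline, so this value does not show likeness beyond chance. Of the 50-base words of the Acaa1b transcript, 35.5% also occurred in Acaa1a, a stricter measure that cannot be set against the first. A match in such a window is a description of the letters and not a measured binding site.

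Each library held 16077424 to 17101844 reads in the control group and 15024945 to 15970453 in the MOCA group, so every MOCA library was shallower than every control library. Values below are reads scaled by the authors for library size and between libraries (normalised counts), given per mouse or as mean ± SD over 4 mice. A log2 fold change is the MOCA mean minus the control mean of log2(value + 1), which understates changes of low genes. Over all genes, 48 were called higher and 32 lower (limma, Benjamini-Hochberg adjusted p under 0.05), or 0.666% of those tested (0.4% higher and 0.266% lower). Scaling all columns to 1 sum gave 131 and 38, and to 1 upper quartile 45 and 51. Hepatocyte markers, led by Alb, summed to 100288 to 116966 in control and 88728.6 to 102202 in MOCA livers. Of 7 lymphocyte markers 6 were not listed. The 6 erythroid markers summed to 252 to 443 in control and 472 to 525 in MOCA livers, without overlap, and their part in the results was not tested. In bulk liver, fewer cells of a type and less RNA per cell cannot be told apart.

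None of the 31 tested genes of fatty acid oxidation was called in either direction by limma, against 0.666% of all genes (0.4% higher, 0.266% lower). None was called by edgeR, which called 0.675% of all genes, or by DESeq2, which called 3.54%. At an unadjusted p under 0.05 limma had 3 of 31 (Cd36, Fabp1 and Acot1, all with higher means in MOCA livers), or 9.68%, against 17.5% of all genes tested. The median log2 fold change was -0.019 over the set and 0.0051 over all genes tested. Positive values numbered 15 and negative values 16, a balance that became 19 and 12 with equal column sums and 13 and 18 with equal upper quartiles. The 95% interval of the fold change lay within 1.5-fold in both directions for 25 of the 31 genes. This held for 10401 of the 12008 genes tested and 1361 of the 1506 with a mean of at least 100. The interval lay within 2-fold for 30 of the 31, the exception being Cd36, against 11784 of the 12008 and 1478 of the 1506. The 4 MOCA values lay wholly outside the control range for 1 of 31 genes (Cd36), or 3.23%, against 10.5% of all genes tested (5.5% above and 4.96% below).

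**Figure D1:**
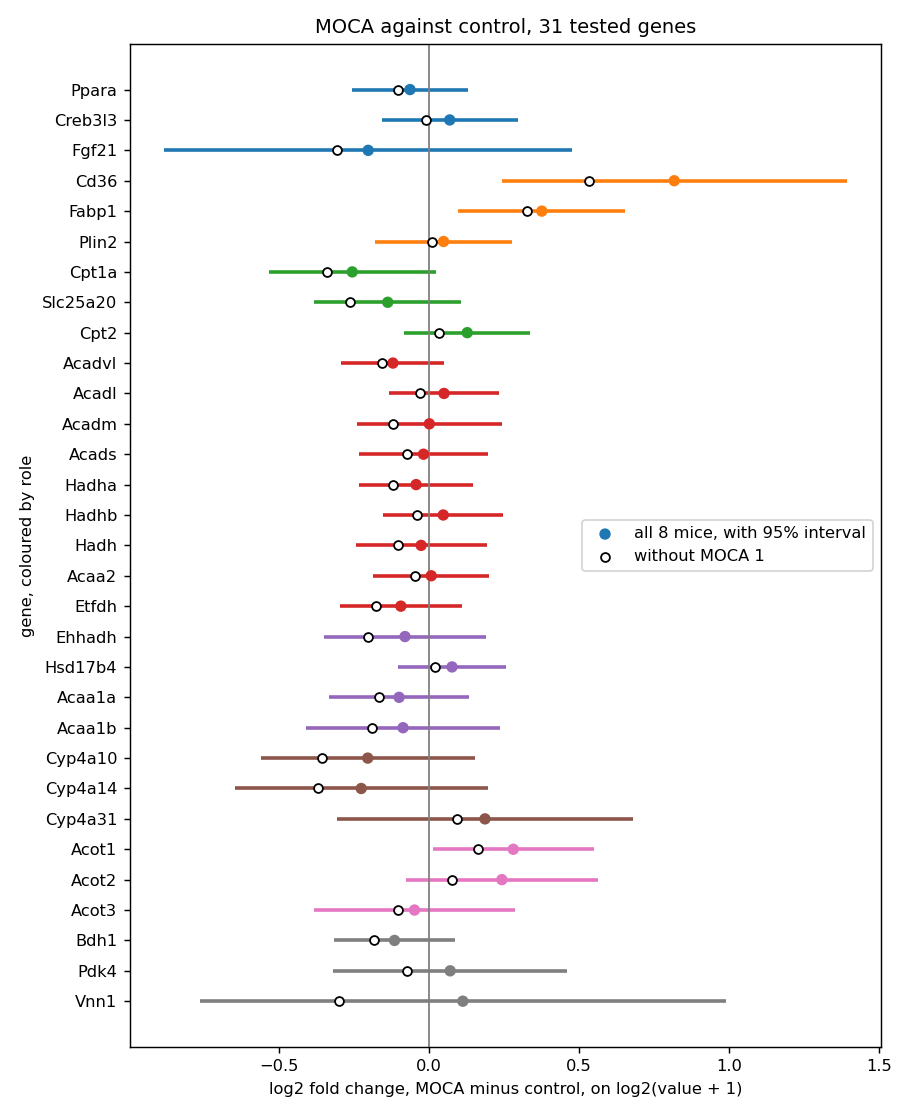
Log2 fold change (horizontal axis, MOCA minus control on log2(value + 1)) of the 31 tested genes, in order of role with 1 colour per role; bars are 95% intervals from limma over 8 mice and open circles leave out MOCA mouse 1. Most intervals cross 0, and the open circles lie to the left of the filled ones for all genes shown.

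Ppara, the receptor itself (chromosome 15, 85734910 to 85806851, from RefSeq on GRCm38.p6 as for all positions here), had normalised counts of 458, 366, 371 and 431 in control mice 1 to 4 and 421, 370.2, 379.8 and 379 in MOCA mice 1 to 4. The groups overlapped, with the highest value in control mouse 1. Its means were 406 ± 45.5 in control and 387 ± 22.7 in MOCA livers, which gave -0.064 (SE 0.088, 95% interval -0.26 to 0.13, limma adjusted p = 0.754) on the log2 scale. Creb3l3 encodes a liver transcription factor, CREBH, that works with PPAR-alpha on fasting genes such as Fgf21. Its values were 309, 325, 275 and 339.6 in control mice 1 to 4 and 384, 305, 344 and 283 in MOCA mice 1 to 4, with overlap of the groups, and the log2 fold change was 0.068 (SE 0.10, 95% interval -0.16 to 0.29, limma adjusted p = 0.777). Fgf21, a hormone released by the fasting liver, was low, at 7.15, 11.7, 5.80 and 10.7 in control mice 1 to 4 and 9.29, 9.03, 10.4 and 2.99 in MOCA mice 1 to 4. MOCA mouse 4 had the lowest value and control mouse 2 the highest. The log2 fold change of Fgf21 was -0.20 (SE 0.31, 95% interval -0.88 to 0.48, limma adjusted p = 0.780), and the wide interval goes with a residual SD of 0.58, above that of 99.1% of tested genes.

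Genes of fatty acid uptake, binding and storage held the leading differences. Cd36, a fatty acid translocase of the cell membrane (chromosome 5, 17781690 to 17888959), had 40.0, 55.6, 47.5 and 29.6 in control mice 1 to 4 and 136, 56.3, 56.4 and 72.6 in MOCA mice 1 to 4. Every MOCA value was above every control value, with MOCA mice 2 and 3 close to the highest control mouse and MOCA mouse 1 the highest. The means were 43.1 ± 11.1 in control and 80.2 ± 37.7 in MOCA livers, and the log2 fold change of 0.82 (SE 0.26, 95% interval 0.24 to 1.39, limma adjusted p = 0.160) did not pass. Without MOCA mouse 1 it was 0.53, with an adjusted p of 0.204. Cd36 is also made by endothelial cells, macrophages and adipocytes. The 8 sinusoidal endothelial markers summed to 502.6 to 584 in control and 482 to 502.3 in MOCA livers. The 10 Kupffer cell and macrophage markers summed to 338 to 409 and 349.998 to 463. Of 8 adipocyte markers, 5 including Adipoq and Plin1 were not listed. The 3 listed summed to 994, 1119, 932 and 1379 in control mice 1 to 4 and 1431, 998, 1065 and 1632 in MOCA mice 1 to 4. They were highest in MOCA mice 4 and 1, which also had the highest Cd36. Control mouse 4 had the next highest sum, 1379, and the lowest Cd36, 29.6. Nearly all of the sum was Car3, at 925 to 1626, while Fabp4 was at 1.61 to 2.28. Adrb3 and Fabp4 had lower means in MOCA livers, 3.45 and 1.70, than in control livers, 4.12 and 2.07. The part of other cell types in the Cd36 values was not tested.

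Fabp1 (chromosome 6, 71199879 to 71205034), which carries fatty acids inside the hepatocyte, had 1017, 1231, 886 and 1048 in control mice 1 to 4 and 1496, 1113, 1276 and 1549 in MOCA mice 1 to 4. MOCA mice 1, 3 and 4 were above every control mouse, and MOCA mouse 2 lay inside the control range. Means were 1045 ± 142 in control and 1359 ± 202 in MOCA livers, which gave 0.38 (SE 0.13, 95% interval 0.096 to 0.65, limma adjusted p = 0.174) on the log2 scale. This corresponds to a fold of 1.30. Plin2, which coats lipid droplets and is raised by fat load as well as by PPAR-alpha, was 546 ± 77.2 in control and 561 ± 38.2 in MOCA livers. For Plin2 the log2 fold change was 0.048 (SE 0.10, 95% interval -0.18 to 0.28, limma adjusted p = 0.856).

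**Figure D2:**
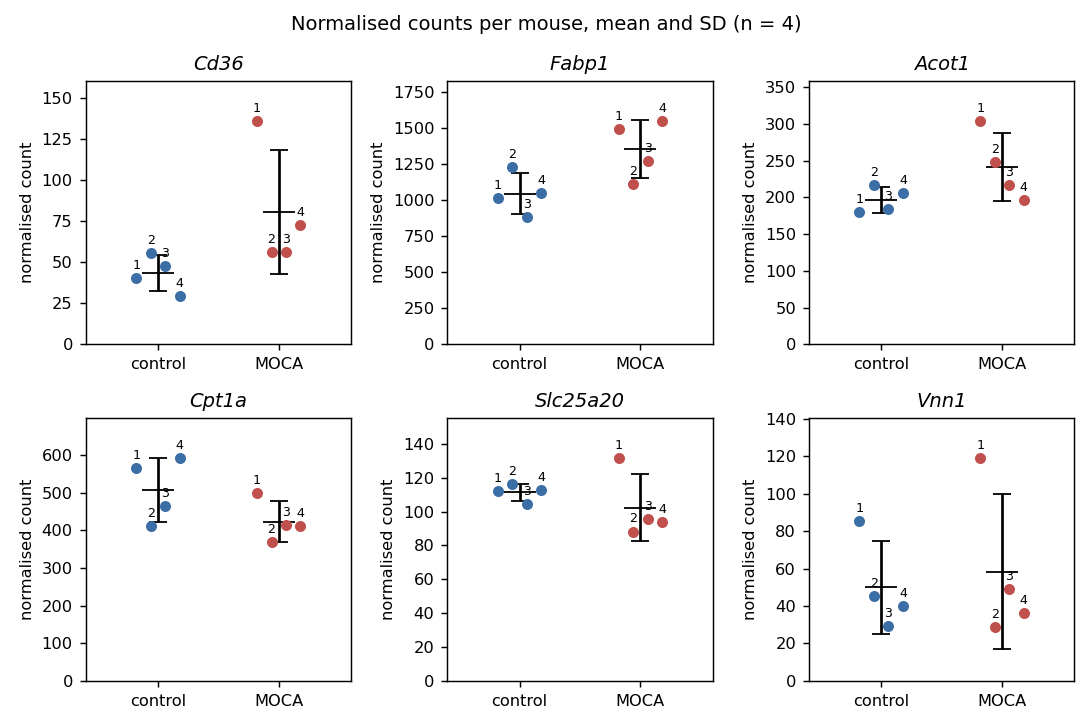
Normalised counts (vertical axes, from 0) of 6 genes in each mouse, numbered by replicate, with the group mean and SD (n = 4). MOCA mouse 1 has the highest value for Cd36, Acot1, Slc25a20 and Vnn1, and the Cd36 groups do not overlap.

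The carnitine shuttle gave no call among 3 genes. Cpt1a (chromosome 19, 3322326 to 3385735) makes acylcarnitine at the outer mitochondrial membrane and controls the rate of entry. Its values were 565, 411, 465 and 593 in control mice 1 to 4 and 499.9, 368, 413 and 413 in MOCA mice 1 to 4, with 3 MOCA mice at 368 to 413 and control mouse 2 among them at 411. The log2 fold change of Cpt1a was -0.26 (SE 0.13, 95% interval -0.53 to 0.021, limma adjusted p = 0.323), the smallest p of the set among genes with a lower MOCA mean. Slc25a20, the carrier that exchanges acylcarnitine for carnitine across the inner membrane, had 112, 116, 104 and 113 in control mice 1 to 4 and 132, 88.2, 95.6 and 93.9 in MOCA mice 1 to 4. Here MOCA mouse 1 was above, and the other 3 MOCA mice below, every control mouse. Over all mice its log2 fold change was -0.14 (SE 0.11, 95% interval -0.38 to 0.11, limma adjusted p = 0.560), and without MOCA mouse 1 it was -0.26 (adjusted p = 0.139), which did not pass either. Cpt2, which returns the acyl group to CoA inside, had 182, 187, 175 and 195 in control mice 1 to 4 and 245, 180.4, 203 and 184 in MOCA mice 1 to 4. For Cpt2 the log2 fold change was 0.13 (SE 0.095, 95% interval -0.083 to 0.34, limma adjusted p = 0.528).

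The 9 genes of mitochondrial beta oxidation had log2 fold changes from -0.12 to 0.049, of which 4 were positive and 5 negative. Their median size without regard to sign, 0.044, was the smallest of any role. Every 95% interval lay within 1.5-fold, as did those of the 3 carnitine shuttle, 4 peroxisomal and 3 thioesterase genes. With equal column sums Acads, Hadha and Hadh turned positive, and with equal upper quartiles Acadm and Acaa2 turned negative. Acadvl, the very long chain acyl-CoA dehydrogenase that takes the first step, had 415, 491, 449.8 and 491 in control mice 1 to 4 and 457, 408, 415 and 414 in MOCA mice 1 to 4. The difference for Acadvl was -0.12 (SE 0.078, 95% interval -0.29 to 0.051, limma adjusted p = 0.458) on the log2 scale. Etfdh, which passes the electrons of the acyl-CoA dehydrogenases to ubiquinone, had 389, 383, 344 and 402 in control mice 1 to 4 and 422, 319, 341 and 344 in MOCA mice 1 to 4, with overlap of the groups. The log2 fold change of Etfdh was -0.095 (SE 0.093, 95% interval -0.30 to 0.11, limma adjusted p = 0.641). Acaa2, the thiolase of the last step and the highest of the 9, had 618, 716, 621 and 732 in control mice 1 to 4 and 751, 651, 641 and 654 in MOCA mice 1 to 4. Its means were 672 ± 60.8 in control and 674 ± 51.7 in MOCA livers, which gave 0.0066 (SE 0.088, adjusted p = 0.979) on the log2 scale.

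The other 6 genes of this pathway also stayed near 0. Acadm, the medium chain enzyme, had 349, 363, 324 and 346 in control mice 1 to 4 and 446, 322, 322 and 308 in MOCA mice 1 to 4. MOCA mouse 1 stood above all others and the remaining 3 MOCA mice lay below every control mouse. Over all mice the log2 fold change was 0.00032, with a 95% interval of -0.24 to 0.24. Acadl (long chain) and Acads (short chain) had log2 fold changes of 0.049 and -0.019 (limma adjusted p = 0.809 and 0.941). Hadha and Hadhb, the subunits of the trifunctional protein, had -0.044 and 0.047 (adjusted p = 0.840 and 0.837 by limma). Hadh, which acts on shorter chains, had -0.027 (adjusted p = 0.918 by limma). The Hadhb transcript shares 61.5% of its 50-base words with the annotated gene Gm13910, so its count is uncertain.

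None of the 4 genes of peroxisomal beta oxidation was called. Ehhadh, the L-bifunctional enzyme and a strong PPAR-alpha target (chromosome 16, 21761285 to 21787834), had 1745, 1738, 1791 and 1699 in control mice 1 to 4 and 2126, 1362, 1643 and 1551 in MOCA mice 1 to 4. The control mice lay within 1699 to 1791, while MOCA mice spread from 1362 to 2126. SDs were accordingly 37.8 in control and 326 in MOCA livers, with means of 1743 and 1670.4. The log2 fold change of Ehhadh was -0.081 (SE 0.12, 95% interval -0.35 to 0.19, limma adjusted p = 0.780). Hsd17b4, the D-bifunctional enzyme for branched and very long chains, had 438, 444, 402 and 476 in control mice 1 to 4 and 523, 452, 436 and 446 in MOCA mice 1 to 4. Its log2 fold change was 0.076 (SE 0.082, 95% interval -0.10 to 0.26, limma adjusted p = 0.675).

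The thiolases Acaa1a and Acaa1b, whose promoter windows are given above, overlapped between groups. Acaa1b had 1412, 1579.9, 1709 and 2059 in control mice 1 to 4 and 1947, 1269, 1458 and 1709 in MOCA mice 1 to 4, and Acaa1a had 189.9, 209.9, 187 and 248 in control mice 1 to 4 and 222, 169.8, 186 and 199.7 in MOCA mice 1 to 4. Per kilobase of annotated exon the mean level over all mice was 973 for Acaa1b and 114 for Acaa1a. Their log2 fold changes were -0.087 and -0.10, with 95% intervals of -0.41 to 0.24 and -0.33 to 0.13. The labels do not say how reads were split between the paralogs.

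The Cyp4a genes of omega oxidation, the textbook readout of PPAR-alpha activation in rodents, had lower MOCA means for the abundant members without passing the test. Cyp4a10 (chromosome 4, 115518287 to 115533649) had 1449.7, 1684, 1747 and 1708 in control mice 1 to 4 and 1964, 1175, 1119.7 and 1597 in MOCA mice 1 to 4. MOCA mice 2 and 3 were below every control mouse and MOCA mouse 1 above every control mouse. Its log2 fold change was -0.20 (SE 0.16, 95% interval -0.56 to 0.15, limma adjusted p = 0.552). Cyp4a14 (chromosome 4, 115486200 to 115496158) had 1381, 1607, 2087 and 1275 in control mice 1 to 4 and 1794, 1537, 1039 and 1098 in MOCA mice 1 to 4. The highest value was in control mouse 3 and the lowest in MOCA mouse 3. The log2 fold change of Cyp4a14 was -0.23 (SE 0.19, 95% interval -0.65 to 0.20, limma adjusted p = 0.583). The upper bounds of these intervals correspond to 1.11-fold for Cyp4a10 and 1.15-fold for Cyp4a14.

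Cyp4a31, a low paralog, had 6.51, 6.76, 6.79 and 5.76 in control mice 1 to 4 and 9.29, 4.90, 5.31 and 12.4 in MOCA mice 1 to 4. MOCA mouse 4 was the highest, and the log2 fold change was 0.19 (SE 0.22, 95% interval -0.31 to 0.68, limma adjusted p = 0.715). Cyp4a12a, whose expression is known to be typical of male mouse liver, was at 0.0636 to 1.10 in these females. The range corresponds to 1 to 17 reads per library. It was not tested. Of the 50-base words of the Cyp4a10 transcript, 25% also occur in Cyp4a32 and 15.3% in Cyp4a31, and none in Cyp4a14. The Cyp4a12a transcript shares 48.9% with Cyp4a12b. The values of single paralogs other than Cyp4a14 are therefore uncertain.

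The acyl-CoA thioesterases release fatty acids from CoA, Acot1 in the cytosol, Acot2 in mitochondria and Acot3 in peroxisomes. Acot1 (chromosome 12, 84009502 to 84017670) had 180.5, 217, 184 and 206 in control mice 1 to 4 and 304, 248, 217 and 197 in MOCA mice 1 to 4. MOCA mice 1, 2 and 3 were above every control mouse, MOCA mouse 3 only barely (217.3 against 216.8 in control mouse 2). MOCA mouse 4 was inside the control range. Its log2 fold change of 0.28 (SE 0.12, 95% interval 0.012 to 0.55, limma adjusted p = 0.267) did not pass, and without MOCA mouse 1 it was 0.16 (adjusted p = 0.462). Acot2 had 36.5, 34.5, 32.3 and 36.5 in control mice 1 to 4 and 59.0, 41.7, 33.8 and 35.6 in MOCA mice 1 to 4, and its log2 fold change was 0.24 (SE 0.15, 95% interval -0.077 to 0.56, limma adjusted p = 0.417). For Acot2 it was 0.076 without MOCA mouse 1. Acot3 had 141, 136, 147 and 142 in control mice 1 to 4 and 154, 136, 94.2 and 178 in MOCA mice 1 to 4, with control SD 4.62 and MOCA SD 35.3 around means of 142 and 140.5. Acot1 and Acot2 are paralogs, 23.7% of the Acot1 words occurring in Acot2.

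The remaining genes serve ketone body synthesis, fuel choice and coenzyme A turnover. Bdh1, which makes beta-hydroxybutyrate, had 324, 338, 305 and 362 in control mice 1 to 4 and 354, 267, 304 and 305 in MOCA mice 1 to 4. MOCA mice 2, 3 and 4 were below every control mouse, though MOCA mice 3 and 4 (304.45 and 304.53) were close to control mouse 3 (305.28). The log2 fold change of Bdh1 was -0.12 (SE 0.092, 95% interval -0.32 to 0.085, limma adjusted p = 0.551). Pdk4, a kinase that shuts off pyruvate dehydrogenase during fasting, had 134, 180.3, 111 and 112 in control mice 1 to 4 and 187, 112, 119 and 147 in MOCA mice 1 to 4. The range of MOCA mice, 112 to 187, overlapped that of control mice, 111 to 180.3, and the log2 fold change was 0.070 (SE 0.18, 95% interval -0.32 to 0.46, limma adjusted p = 0.880). Vnn1, a pantetheinase and PPAR-alpha target, had 85.6, 45.1, 29.1 and 40.1 in control mice 1 to 4 and 119, 28.9, 49.0 and 36.5 in MOCA mice 1 to 4. Mouse 1 of each group was the highest of its group. The log2 fold change of Vnn1 was 0.11 (SE 0.40, 95% interval -0.76 to 0.99, limma adjusted p = 0.917), with both bounds inside 2-fold.

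**Figure D3:**
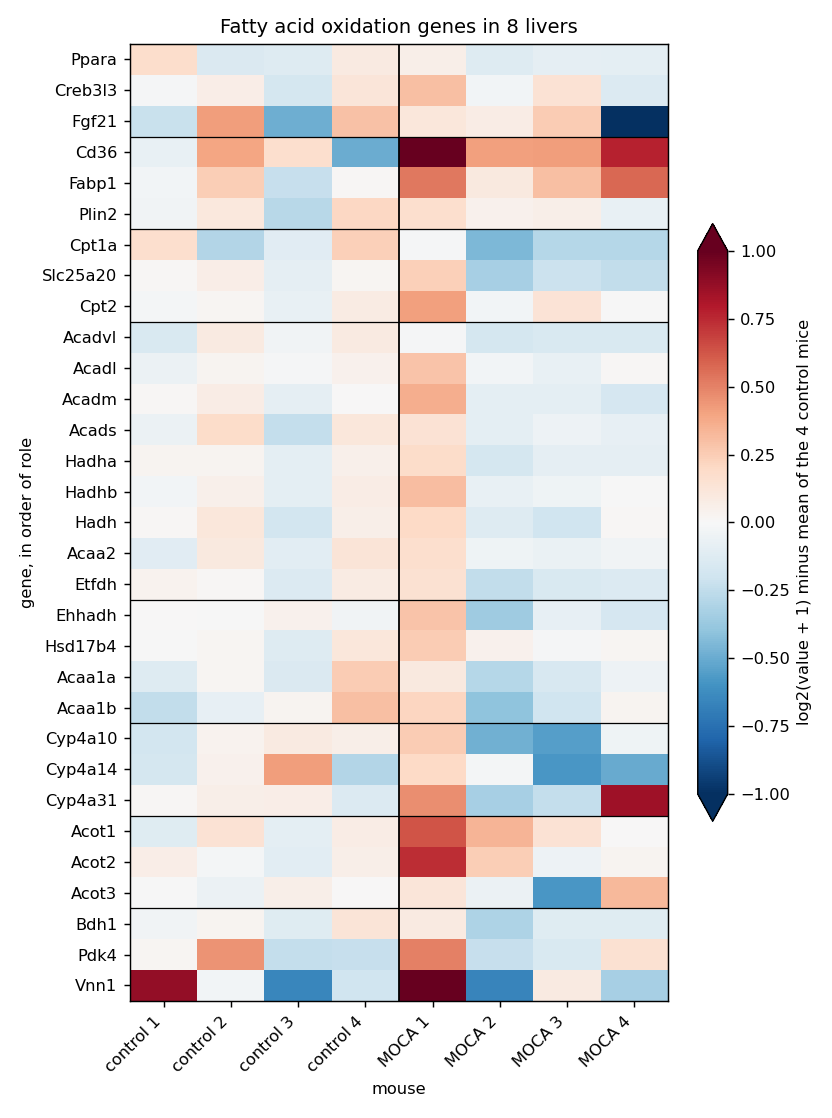
Each of the 31 tested genes (rows, lines separate the roles) in each of the 8 mice (columns), as log2(value + 1) minus the mean of the 4 control mice; the colour scale ends at 1 in either direction and values beyond it have the end colour. The MOCA 1 column is positive for most genes, and the MOCA 2 and MOCA 3 columns are mostly negative.

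The highest and lowest values of the set were unevenly shared among the mice. MOCA mouse 1 had the highest of the 8 values for 18 of 31 genes (58.1%) and the lowest for 0. Over all tested genes it had the highest value for 10.5%, and over the 1506 genes with a mean of at least 100 for 15.9%. MOCA mouse 2 had the lowest value for 11 of 31 genes (35.5%) and the highest for 0, where it was lowest for 7.95% of all tested genes and 9.56% of those with a mean of at least 100. Control mouse 3 was lowest for 9 of 31 (29.03%), against 17.5% of all tested genes and 21.1% of those with a mean of at least 100. MOCA mouse 1 led 7 of the 9 mitochondrial genes, the exceptions being Acadvl and Acads. The mean deviation from the control mean over the 31 genes was 0.34 (log2) in MOCA mouse 1 and -0.13, -0.087 and -0.038 in MOCA mice 2, 3 and 4. In control mice 1 to 4 it was -0.0086, 0.069, -0.10 and 0.042. The 32 genes took 1.74% of the reads of MOCA mouse 1, against 1.335% to 1.504% in the other MOCA libraries and 1.411% to 1.4997% in the control libraries. The depth of MOCA mouse 1, 15970453 reads, was the highest of the MOCA group.

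Without MOCA mouse 1, 23 of the 31 genes had a negative and 8 a positive log2 fold change, and the median moved from -0.019 to -0.10, with 0.0054 over all tested genes. None was called (limma). Then 6 had an unadjusted p under 0.05, namely Cd36, Fabp1, Cpt1a, Slc25a20, Etfdh and Cyp4a10, and 15.6% of all genes did. Slc25a20, Acadm, Etfdh, Ehhadh and Bdh1 lay below the control range in all 3 remaining MOCA mice, and Cd36 above it. That is 5 of 31 below and 1 of 31 above, where 7.34% and 7.69% of all genes were. The gap was very small for Etfdh (343.9 in MOCA mouse 4, 344.2 in control mouse 3) and Bdh1 (304.5 in MOCA mouse 4, 305.3 in control mouse 3). The mouse left out was singled out for its high values in these same genes, while all genes were not chosen that way. A downward move without it is therefore set by the choice and is no separate result. The balance also depended on other mice. Without control mouse 3 it was 10 positive and 21 negative, and without MOCA mouse 2 it was 20 and 11.

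Markers of feeding state in MOCA mouse 1 are given beside this, Igfbp1, Pck1, Scd1, Srebf1 and Acaca being named from the 15 after their values were seen. Of the 15, this mouse had the highest of the 8 values for 1 and the lowest for 2. Igfbp1, which insulin lowers, was 513 in MOCA mouse 1, 163 to 337 in the other MOCA mice and 286 to 491 in the controls. Pck1, a gluconeogenic enzyme raised by fasting, was 4706 against 3213 to 3440 and 3899.8 to 4843. Scd1, a lipogenic enzyme, was 8528 there, 13889.6 to 15147 in the other MOCA mice and 9819 to 17047 in the controls. Srebf1 of the same list was also lowest in MOCA mouse 1, at 112, with 146 to 150 in the other MOCA mice and 135 to 201 in the controls. The lipogenic genes Fasn, Acaca and Pnpla3 of this list were above every control mouse in MOCA mouse 1, but inside the range of the other MOCA mice. Fasn was 550.2 there, 470 to 902 in the other MOCA mice and 321 to 456 in the controls. Acaca, acetyl-CoA carboxylase, was 214 there, 203 to 268 in the other MOCA mice and 175 to 202 in the controls. Pnpla3 was 4.20 there, 2.72 to 6.90 in the other MOCA mice and 2.52 to 3.03 in the controls. The part of feeding state in these values was not tested.

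The spread between mice was wide for some genes of the set. The residual SD of log2(value + 1) within groups had a median of 0.18 over the 31 genes and 0.15 over all genes tested. Over the genes with a mean of at least 100 this median was 0.12. For 7 of the 31 the residual SD was above that of 90.5% to 99.7% of all genes, namely Vnn1, Fgf21, Cd36, Cyp4a31, Cyp4a14, Pdk4 and Cyp4a10. Acadvl had the lowest, 0.098, above 18.5% of all genes. In MOCA livers the SD was larger than in control livers for 24 of 31 genes, against 47.4% of all tested genes and 42.0% of those with a mean of at least 100. Without MOCA mouse 1 this held for 12 of 31, against 45.6% of all tested genes and 36.9% of those with a mean of at least 100. As this mouse was chosen for its high values in the set, a smaller MOCA SD without it is favoured by the choice.

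**Figure D4:**
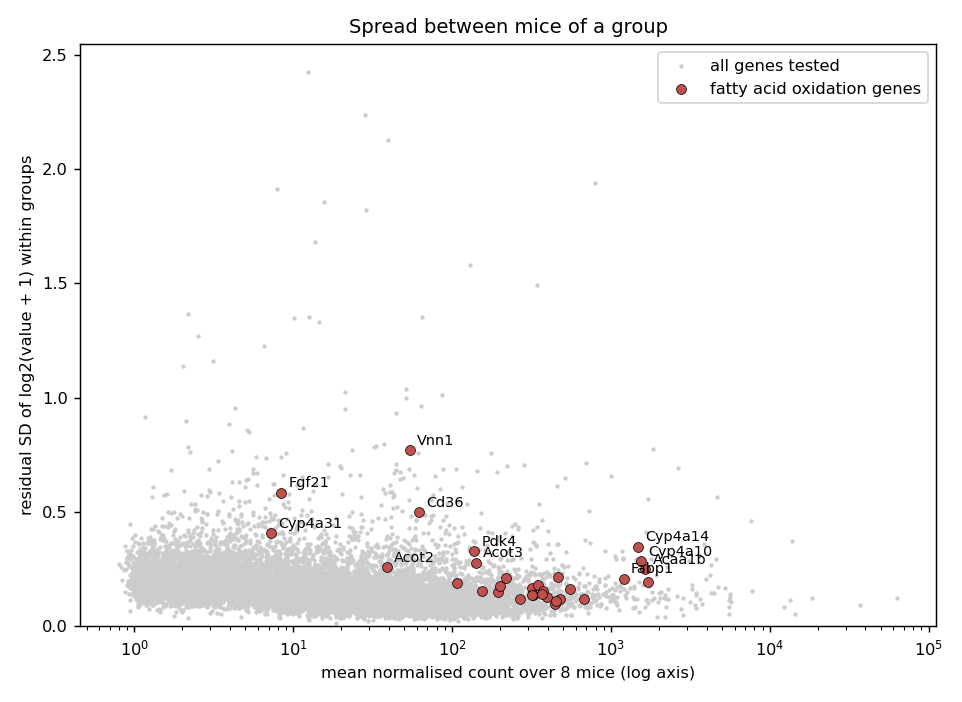
Residual SD of log2(value + 1) within groups (vertical axis) against the mean normalised count over 8 mice (horizontal log axis) for all 12008 tested genes (grey) and the 31 fatty acid oxidation genes (red). Vnn1, Fgf21 and Cd36 have the highest SDs of the set and Acadvl the lowest.

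Whether genes of the set varied together over the 8 mice was examined for 6 pairs. Ppara and Cpt1a had Pearson r = 0.88 (exact permutation p = 0.00508, two-sided, 0.0305 after Benjamini-Hochberg adjustment over 6 pairs) and Spearman rho = 0.88 (exact permutation p = 0.00724, adjusted 0.0435). As deviations from the group means r was 0.92. Without control mice 1 and 4, farthest from the median of Ppara, r was 0.71 and rho 0.77 over 6 mice (exact permutation p = 0.135 and 0.103, adjusted 0.269 and 0.308). The relation kept its sign but did not pass over these 6 mice, whose range of Ppara is narrower. Cyp4a14 and Cyp4a10 had r = 0.54 and rho = 0.69 (exact permutation p = 0.175 and 0.0694, adjusted 0.525 and 0.208). Cyp4a14 had r = 0.18 with Pdk4, 0.049 with Vnn1 and 0.21 with Acot1 (exact permutation p = 0.669, 0.907 and 0.622, adjusted 0.91 each). For Cyp4a14 with Acot1, r was 0.57 as deviations from the group means (permutation p = 0.138 over 8 mice, adjusted 0.415). The deviations were permuted across both groups and not within them, so this p is approximate. Without control mouse 3 and MOCA mouse 3, r was 0.75 (exact permutation p = 0.0819 over 6 mice, adjusted 0.246). Over all mice, rho of Cyp4a14 with Pdk4, Vnn1 and Acot1 was 0.024, -0.071 and 0.071, with exact permutation p = 0.977, 0.882 and 0.882 (adjusted 0.977 each). Pdk4 and Fgf21 had r = 0.056 and rho = 0.17 (exact permutation p = 0.91 and 0.703, adjusted 0.91 and 0.977).

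**Figure D5:**
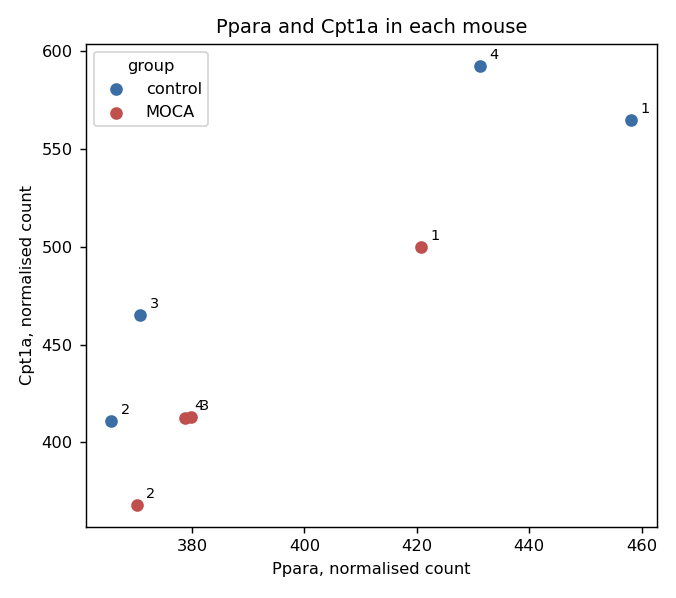
Normalised counts of Cpt1a (vertical axis) against Ppara (horizontal axis) in each mouse, numbered by replicate and coloured by group. Control mice 1 and 4 lie at the upper right, and the other 6 mice lie at Ppara values of 366 to 421.

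Levels per kilobase of annotated exon, averaged over the 8 mice, spanned the whole range from 2174 for Fabp1 to 0.162 for Cyp4a12a. After Fabp1 came Acaa1b (973), Cyp4a10 (738), Cyp4a14 (592), Ehhadh (573) and Acaa2 (444). Ppara itself, at 112, was 18th of the 32. At the low end were Vnn1 (22.4), Acot2 (17.6), Cd36 (17.4), Fgf21 (8.81) and Cyp4a31 (2.88). Between neighbours such as Cyp4a14 and Ehhadh the difference is smaller than the spread of Cyp4a14 over mice, whose control SD was 361 around 1588 normalised counts.

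Other genes of the pathway, from 7 lists, gave no call by limma or edgeR among 147 tested. Of these, 25 had an unadjusted p under 0.05, or 17.0% against 17.5% of all genes, and DESeq2 called 7 of the 147, where it called 3.54% of all genes. Among 24 further genes of acyl-CoA activation and mitochondrial oxidation, 3 with higher and 2 with lower means had an unadjusted p under 0.05. Acsl4, an acyl-CoA synthetase that prefers arachidonate, was 54.8 ± 2.31 in control and 72.7 ± 8.24 in MOCA livers, with no overlap and a log2 fold change of 0.40 (SE 0.085, 95% interval 0.21 to 0.58, limma adjusted p = 0.0619). Acad10, an acyl-CoA dehydrogenase, was 49.3 ± 2.86 in control and 37.8 ± 3.62 in MOCA livers, likewise without overlap, with -0.38 (SE 0.082, 95% interval -0.56 to -0.20, limma adjusted p = 0.0632). Both passed with DESeq2 (adjusted p = 0.00431 and 0.00605), and both passed with limma without MOCA mouse 1 (adjusted p = 0.0393 and 0.0389). For both, MOCA mouse 1 was nearest to the control values (63.6 and 43.0), so leaving it out widens the difference by construction.

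Among 29 further peroxisomal genes, 1 with a higher and 3 with lower means had an unadjusted p under 0.05. Slc27a2, which imports and activates very long chain fatty acids, was 1714 ± 115 in control and 1286 ± 239.8 in MOCA livers. The difference was -0.43 (SE 0.12, 95% interval -0.70 to -0.16, limma adjusted p = 0.122) on the log2 scale. It passed without MOCA mouse 1 (-0.55, limma adjusted p = 0.0373) and with DESeq2 (adjusted p = 0.0274). Abcd2, a peroxisomal fatty acid transporter, was 91.3 ± 12.3 in control and 64.7 ± 21.9 in MOCA livers, with -0.54 (SE 0.19, 95% interval -0.96 to -0.12, limma adjusted p = 0.193). Crat, a carnitine acyltransferase from the list of mitochondrial oxidation and named after its values were seen, was called without MOCA mouse 1 (-0.49, limma adjusted p = 0.0389) and was -0.29 with it (adjusted p = 0.381). For Slc27a2 and Crat, MOCA mouse 1 was the highest of its group (1631 and 122), so leaving it out lowers both by construction.

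Of 9 further omega oxidation genes, 3 had an unadjusted p under 0.05, all with lower means. Cyp4a32, the paralog that shares words with Cyp4a10, had 92.7, 89.5, 122 and 128 in control mice 1 to 4 and 46.2, 75.9, 85.5 and 65.9 in MOCA mice 1 to 4, every MOCA value below every control value. Its log2 fold change was -0.67 (SE 0.18, 95% interval -1.05 to -0.28, limma adjusted p = 0.104), and DESeq2 gave an adjusted p of 0.011. Cyp4v3 was 322 ± 30.0 in control and 277 ± 17.8 in MOCA livers, a log2 difference of -0.22 (SE 0.085, adjusted p = 0.225) by limma. The 36 other PPAR-alpha targets had 1 gene with a higher and 2 with lower means at an unadjusted p under 0.05. Slc25a34, a mitochondrial carrier, was 9.04 ± 2.25 in control and 14.02 ± 2.72 in MOCA livers (a log2 difference of 0.59, SE 0.17, limma adjusted p = 0.126, and adjusted p = 0.0378 with DESeq2). Pnpla2, the main triglyceride lipase, was 80.3 ± 2.99 in control and 67.6 ± 10.1 in MOCA livers (a log2 difference of -0.26, SE 0.097, limma adjusted p = 0.212). MOCA mouse 1 had the highest of the 8 values for 16 of these 36 targets, for 9 of the 24 mitochondrial and 10 of the 29 peroxisomal genes above, and for 1 of the 9 omega oxidation genes. In the remaining lists it was highest for 2 of 8 ketone body genes, 2 of 27 partners and coregulators and 1 of 15 feeding markers, against 10.5% of all tested genes.

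None of the 8 further ketone body genes had an unadjusted p under 0.05. The lowest were those of the monocarboxylate transporters Slc16a1 (a log2 difference of -0.21, SE 0.12, limma adjusted p = 0.363) and Slc16a7 (a log2 difference of -0.14, SE 0.13, limma adjusted p = 0.613). Among 27 partners and coregulators of the receptor, 21 had a negative log2 fold change, where 5868 of all 12008 tested genes did, and the median was -0.16. In this list control mouse 3 had the highest value for 12 of 27 genes (44.4%, against 16.5% of all tested genes) and MOCA mouse 4 the lowest for 11 (40.7%, against 18.5%). An unadjusted p under 0.05 was found for 1 gene with a higher and 5 with lower means. Sirt1, a deacetylase that acts with PPAR-alpha, was 20.6 ± 1.81 in control and 16.0 ± 1.48 in MOCA livers without overlap (a log2 difference of -0.35, SE 0.093, limma adjusted p = 0.106, and adjusted p = 0.0487 with DESeq2). Klb, the co-receptor of FGF21, was 56.5 ± 3.62 in control and 47.0 ± 3.94 in MOCA livers, also without overlap (a log2 difference of -0.26, SE 0.080, limma adjusted p = 0.142). Here 5 of 27 genes lay wholly below the control range, or 18.5% of them, against 4.96% of all tested genes below it. Of 15 markers of feeding state, 3 with higher means and 1 with a lower mean had an unadjusted p under 0.05. Fasn, fatty acid synthase, was 405 ± 59.0 in control and 633 ± 188 in MOCA livers (a log2 difference of 0.61, SE 0.18, limma adjusted p = 0.126, 0.0141 with DESeq2), and Pnpla3, an insulin-raised lipase, was 2.70 ± 0.225 in control and 4.66 ± 1.74 in MOCA livers (a log2 difference of 0.56, SE 0.19, limma adjusted p = 0.172).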

How the data were processed

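Liver RNA was taken with RNeasy columns and 200 ng was depleted of ribosomal RNA for directional MGIEasy libraries, per the labels' protocols. Trimmomatic 0.38, Bowtie2, RSEM and edgeR are named with mm10 in the submitters' processing notes, with no role given. Whether counting used strand is not stated there. The authors deposited scaled signal per gene (normalised counts), 1 column per mouse. Each value (100%) divided by its column's step gave a whole number within 0.001, and these were taken as reads. Every sample column was used.

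Groups were compared with limma 3.58.1 (R 4.3.3, eBayes with trend) on log2(value + 1), for genes reaching 1 normalised count in at least 4 libraries. Benjamini-Hochberg adjustment ran over all 12008 genes. The edgeR 4.0.16 quasi-likelihood test (81 genes called) and that of DESeq2 1.42.0 (425) used those reads. The script was tested on simulated data with known changes. Positions come from RefSeq (GRCm38.p6) and exon lengths and 50-base words from GENCODE M21, matched by symbol for 32 of 32 genes. The genes and lists were chosen with earlier results of these data known. All genes of the set are named, with values per mouse for Ppara and, in each role, the 2 with the smallest p and the highest mean. From each further list the 2 with the smallest p are named. Fgf21, Slc25a20, Acadm, Acaa1b, Cyp4a31, Acot3 and Vnn1 were given per mouse after their values were seen.

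Mice of 1 group differed by more than sampling noise in every pair (chi-square over its degrees of freedom, 12.5 to 26.9). Each library is labelled as a separate mouse.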

Additional observations from a re-analysis of the deposited data

Results flagged for a closer look

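Outlying mice were sought in 94 groups of 4 mice (47 of the genes named in the text, each in both groups). A mouse was set apart when its gap to the nearest other mouse exceeded Dixon's critical share of the group's range. Chance alone gives about 1 in 20 such groups, and 7 were found, 4 of them with MOCA mouse 1 highest of its group in a mitochondrial gene. Those 4 come from 1 mouse and 1 pathway and are not independent. Some of the genes were also named for a small p or after their values were seen. The 7 are therefore a description and no test against that rate. In MOCA mouse 1, Acadvl was 457, with 408 to 415 in the other MOCA mice. Acadm was 446 there, with 308 to 322 in the others. Hadhb was 393 there, with 302 to 317 in the others. Acaa2 was 751 there, with 641 to 654 in the others. Hadha was lowest in control mouse 3, at 453, with 494 to 502.2 in the other control mice. Cyp4v3 was lowest in control mouse 1, at 278, with 333 to 343 in the others. Cyp4a12a was highest of the controls in control mouse 3, at 0.617, with 0.174 to 0.240 in the others.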

How the results depend on the processing

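No gene of the set was called under any of 17 other settings, and the median log2 fold change of the set ran from -0.037 to 0.034 with other scalings and from -0.10 to 0.030 when 1 mouse was left out. For the further lists, 0 higher and 0 lower became 1 and 0 with equal column sums, 0 and 1 with equal upper quartiles, 3 and 4 with DESeq2, and 0 to 1 and 0 to 3 without 1 mouse. Over all genes, 48 higher and 32 lower became 131 higher with equal column sums, 51 lower with equal upper quartiles, 222 and 203 with DESeq2, 20 and 10 with the replicate block, and 21 to 42 and 8 to 35 without 1 mouse. The replicate block changed no other call. Same-numbered mice did not deviate together (correlations -0.074, -0.0014, 0.036 and -0.044), and 0 of 4 control mice correlated best with its own number. These values show no pairing by number, but so few mice cannot exclude one.

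The sign of small log2 fold changes turned with equal column sums for Acads (0.034), Hadha (0.0097), Hadh (0.026) and Acot3 (0.0041), and with equal upper quartiles for Acadm (-0.018) and Acaa2 (-0.012). Leaving out 1 mouse turned these signs, with ranges of Creb3l3 -0.0097 to 0.14, Fgf21 -0.37 to 0.15, Plin2 -0.045 to 0.12, Acadl -0.030 to 0.090, Acadm -0.12 to 0.055, Acads -0.098 to 0.042, Hadha -0.12 to 0.00042, Hadhb -0.040 to 0.087, Hadh -0.10 to 0.030, Acaa2 -0.046 to 0.049, Ehhadh -0.20 to 0.011, Acaa1b -0.19 to 0.017, Cyp4a31 -0.035 to 0.36, Acot3 -0.17 to 0.13, Pdk4 -0.075 to 0.22 and Vnn1 -0.30 to 0.40. Without the 2 mice farthest from the median of the first gene, r was 0.71 for Ppara with Cpt1a and -0.74 for Pdk4 with Fgf21 (6 mice, exact permutation p = 0.135 and 0.0708, adjusted 0.269 and 0.246). For Cyp4a14 it was 0.17 with Cyp4a10, 0.48 with Pdk4, 0.49 with Vnn1 and 0.75 with Acot1, none of which passed (exact permutation p = 0.753, 0.335, 0.326 and 0.0819). Where no setting's construction shows it, the cause was not tested. With 4 mice a group, 25 of 31 intervals exclude changes of 1.5-fold, and the other 6, Fgf21, Vnn1 and Cd36 among them, do not. Over all genes tested, 10401 of 12008 intervals exclude such changes.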
